A study of Homo sapiens with 9 samples.

Results

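The transcripts of 9 epithelial serpins, SERPINB1, SERPINB2, SERPINB3, SERPINB4, SERPINB5, SERPINB7, SERPINB8, SERPINB13 and SERPINE2, were followed in human mammary epithelial cells transformed by BMP2 and IL6. They were chosen by gene symbol, with earlier results of these data known, from the 60199 symbols of the count table. All 9 passed the filter on low counts that left 15717 genes for testing. Poly-A RNA was sequenced from 3 cultures of each of 3 lines, all descended from MCF10A. This nonmalignant mammary line lacks p16/CDKN2A and has MYC amplified. CT was MCF10A grown without added cytokine. MC26 came from unsorted MCF10A cells kept with BMP2 and IL6. M1B26 came from MCF10A cells sorted as BMPR1B+, from which 3 clones were picked in soft agar and grown on with the same cytokines, so this line traces back to few cells. The cultures of a line are described as independent, and p-values below measure the spread between them.

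Serpins are a family of proteins that mostly inhibit proteases: the protease cuts an exposed loop near the end of the chain, the reactive centre loop, and is then trapped by a large change of shape. The loop sets which protease is caught, and some members catch none. Clade B members stay mostly inside the cell and many are typical of stratified epithelia such as epidermis, where they guard against proteases that leak from lysosomes or come from other cells. SERPINE2 belongs to a secreted clade. SERPINB1 lies on chromosome 6 and SERPINE2 on chromosome 2, while the other 7 lie on chromosome 18 within 542.8 kb, between positions 63476958 and 64019779 of GRCh38, in a cluster that arose by repeated duplication.

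The most alike pair of that cluster rose steeply, and its sequences are shown because they bear on how well the reads of each copy can be told apart. SERPINB3 (chr18:63655197-63661893, minus strand) and SERPINB4 (chr18:63637259-63644256, minus strand) have coding sequences of 1170 bases that differ at 56, an identity of 95.2%. The coding identity of the other pairs among the 9 members ran from 57.8% to 68.3%. Of the stretches of 50 bases in the SERPINB3 transcript, 24.9% also occur in the SERPINB4 transcript, and of those of 100 bases 3.54%. The windows below are coding bases 969 to 1058, within exon 8, the last coding exon, which encodes the reactive centre loop. They lie at chr18:63655772-63655861 and chr18:63637834-63637923 (GRCh38, minus strand, read 5′ to 3′), and capitals mark the 13 of 90 bases that differ.
SERPINB3 coding window: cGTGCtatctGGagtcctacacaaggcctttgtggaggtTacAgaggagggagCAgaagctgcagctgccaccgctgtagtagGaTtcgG
SERPINB4 coding window: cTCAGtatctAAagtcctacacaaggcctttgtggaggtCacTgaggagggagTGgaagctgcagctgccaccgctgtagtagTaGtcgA

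The promoters of the pair, as given by RefSeq on GRCh38.p14 from 250 bases before to 50 after the transcription start, are closer still. Over 300 bases they differ at the 4 bases in capitals, an identity of 98.7%. They lie at chr18:63661844-63662143 and chr18:63644207-63644506 (minus strand, read 5′ to 3′).
SERPINB3 promoter: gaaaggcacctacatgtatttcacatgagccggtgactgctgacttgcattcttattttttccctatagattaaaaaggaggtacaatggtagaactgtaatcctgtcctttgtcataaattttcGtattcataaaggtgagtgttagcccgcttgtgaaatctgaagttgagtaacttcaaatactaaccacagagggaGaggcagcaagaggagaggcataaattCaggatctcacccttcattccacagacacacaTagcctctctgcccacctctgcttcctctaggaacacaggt
SERPINB4 promoter: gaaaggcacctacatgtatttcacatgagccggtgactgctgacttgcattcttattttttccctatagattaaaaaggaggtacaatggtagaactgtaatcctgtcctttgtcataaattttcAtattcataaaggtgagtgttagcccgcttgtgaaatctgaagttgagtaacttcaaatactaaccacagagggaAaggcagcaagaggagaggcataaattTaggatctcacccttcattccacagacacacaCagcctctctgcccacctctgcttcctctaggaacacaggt
The promoter of SERPINB2 (chr18:63887455-63887754, plus strand) is shown because this gene also rose steeply but followed another order over the libraries. Capitals mark letters of an AP-1 site (TGANTCA) that begin 102 bases before the start, and of a TATA box (TATAAA) 30 bases before it.
SERPINB2 promoter: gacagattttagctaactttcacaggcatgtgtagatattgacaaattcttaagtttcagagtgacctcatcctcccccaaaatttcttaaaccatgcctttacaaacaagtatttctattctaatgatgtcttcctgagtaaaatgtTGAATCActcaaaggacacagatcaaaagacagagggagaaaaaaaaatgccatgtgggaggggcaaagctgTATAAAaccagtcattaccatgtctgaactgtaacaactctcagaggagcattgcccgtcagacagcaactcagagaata

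Such letters were counted in all 12 RefSeq promoters of the 9 members and in 35116 promoters of the whole table. No match among the members overlapped another. TGANTCA, which reads alike on both strands, stood in 6 of the 12 promoters, those of SERPINB2, SERPINB5, SERPINB8, SERPINB13 and a pair of the 3 of SERPINB7, against 7.71% of all promoters. The STAT letters TTCNNNGAA, also alike on both strands, stood in 3 of the 12 (SERPINB1, SERPINB7, SERPINB8), against 7.66%. The letters GGCGCC, bound by SMAD proteins of the BMP pathway, were in none of the 12 windows, against 19.2%. TATAAA on the sense strand stood in 4 of the 12, those of SERPINB2, SERPINB7, SERPINB8 and SERPINB13, against 7.33%. In this order the letters began at offsets of -30, -127, -140 and 24 from the transcription start. None of these letters was in the windows of SERPINB3 and SERPINB4, which says nothing of the factors outside these windows. The share of G and C in the 12 windows ran from 29.7% to 73.7%, and the shares over all promoters were not matched for it.

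Total counts ran from 21425118 (CT replicate 2) to 80076597 (CT replicate 3), and levels are given as counts scaled to a library of 1000000 (CPM), with library sizes multiplied by TMM factors of 0.968 to 1.07. A single count of CT replicate 2 equalled 0.0467 CPM before that factor. Of 10 mammary epithelial markers 9 were above 1 CPM in every library, whereas KRT19 had 57 counts in all. Of those 9, 4 rose and 4 fell in MC26 against CT, and 3 rose and 3 fell in M1B26. Among basal markers, in the order CT, MC26 and M1B26, the means were 54.1, 1097 and 548 CPM for KRT14 and 31.9, 78.1 and 79.0 CPM for TP63, both higher in either line, and 6586, 6264 and 4924 CPM for KRT5, which fell in M1B26 (log2 fold change -0.42, edgeR adjusted p = 0.00435). The luminal keratin KRT8 had 372, 202 and 309 CPM, CDH1 76.4, 40.7 and 44.1 and EPCAM 70.4, 14.8 and 72.1, so these 3 fell in MC26 (log2 fold changes -0.88, -0.91 and -2.25). In bulk RNA a larger share of cells of one type and more RNA per cell cannot be told apart. The 7 leukocyte markers summed to 11.9 to 17.2 CPM in CT, 21.5 to 25.2 in MC26 and 39.3 to 53.4 in M1B26, most of it CD14 in M1B26, while PTPRC had 5 counts in all and CD3E none. The 7 fibroblast markers summed to 37.4 to 37.8, 17.1 to 56.8 and 28.5 to 39.9 CPM, and the 4 endothelial markers to 7.53 to 7.78, 1.02 to 1.39 and 2.84 to 4.91 CPM, with 2 genes of each list at or under 3 counts in every library. Genes within the fibroblast list moved apart: in M1B26 LUM rose from 0.108 to 5.11 CPM (edgeR adjusted p = 7.88e-06) and COL1A1 from 7.73 to 15.4 CPM (edgeR adjusted p = 1.63e-04), while DCN had means of 29.0 CPM in CT and 14 in M1B26 (edgeR adjusted p = 0.129). What part any of these had in the changes below was not tested.

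In MC26 against CT, SERPINB2, SERPINB3, SERPINB4, SERPINB5 and SERPINB8 rose and no member fell. These 5 of 9 members stood against 38.7% of all tested genes called changed, and 18.8% called higher, at a Benjamini-Hochberg adjusted p under 0.05 in edgeR's quasi-likelihood test. In M1B26 against CT all 9 members changed, against 48.9% of tested genes: 8 rose, against 25.2%, and SERPINE2 fell, against 23.7%. In M1B26 against MC26, SERPINB1, SERPINB2 and SERPINB7 were higher and SERPINB5 and SERPINE2 lower, 5 members against 39.5% of tested genes (21.2% higher, 18.4% lower). The median log2 fold change of the members was 0.78, 1.25 and -0.09 in this order, against 0.00 over all tested genes each time. The first and second comparisons share the CT libraries. SERPINB2 and SERPINB4 passed the filter through MC26 and M1B26 only, being over it in 1 and in 0 of the 3 CT libraries. A rise against CT was therefore all these 2 could show, and the counts and medians against CT include both. Among the other 7 members 3 rose in MC26, and in M1B26 all rose but SERPINE2, which fell. The middle log2 fold change of these 7 was that of SERPINB13 in MC26 (0.53) and of SERPINB8 in M1B26 (0.69).

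The libraries of the lines compared did not overlap in CPM for 5 members in MC26 against CT, against 50.3% of tested genes. They did not overlap for 9 members in M1B26 against CT, against 59.0%, and for 5 in M1B26 against MC26, against 53.5%. In each comparison these were the members called changed.

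**Figure D1:**
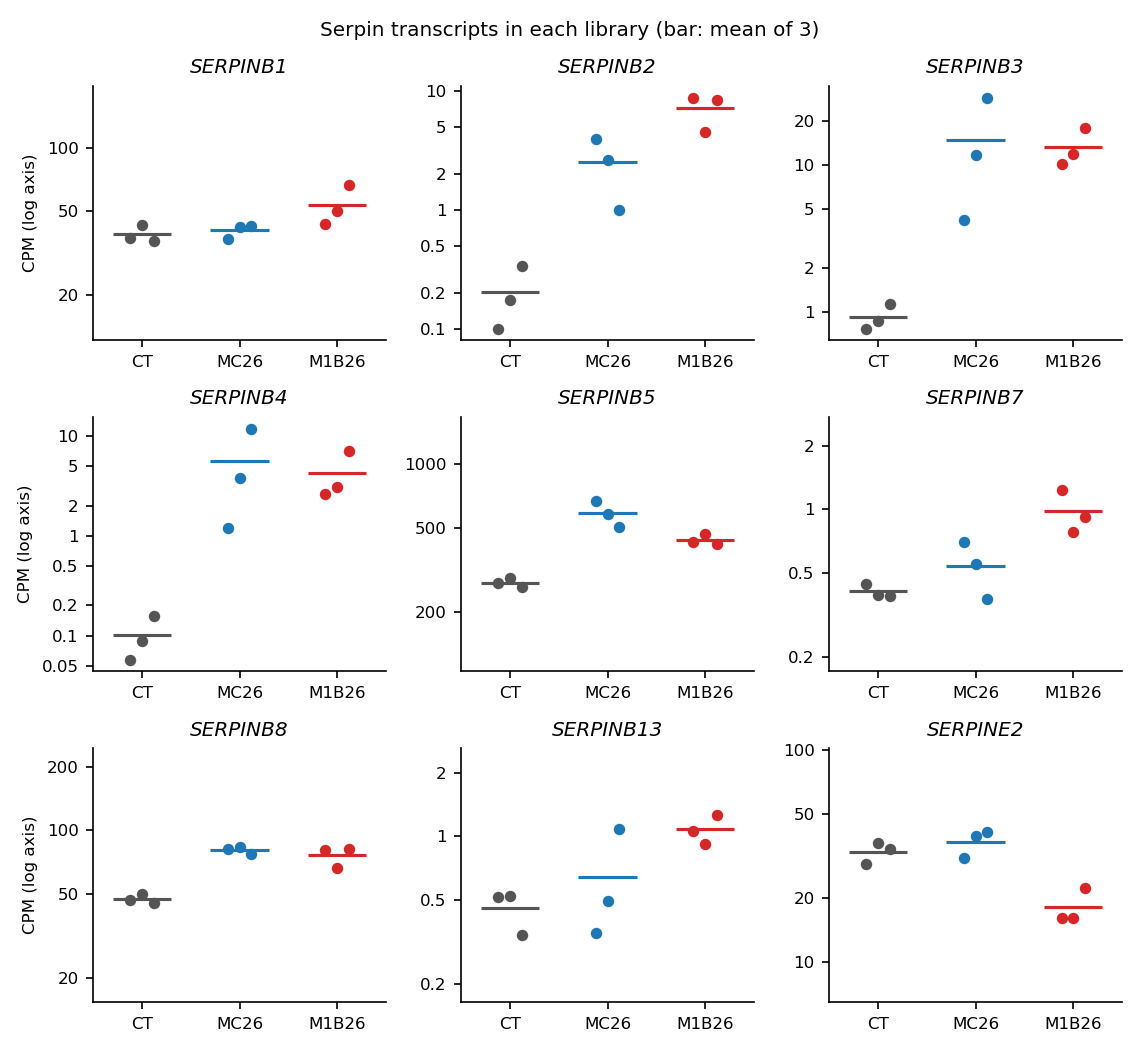
Each panel plots 1 serpin in CPM on a log axis, with a point for each of the 3 libraries of CT, MC26 and M1B26 and a bar at their mean. SERPINB3 stood at 0.772 to 1.13 CPM in CT and at 4.23 CPM or more in every MC26 and M1B26 library, while SERPINE2 was lowest in the M1B26 libraries.

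**Figure D2:**
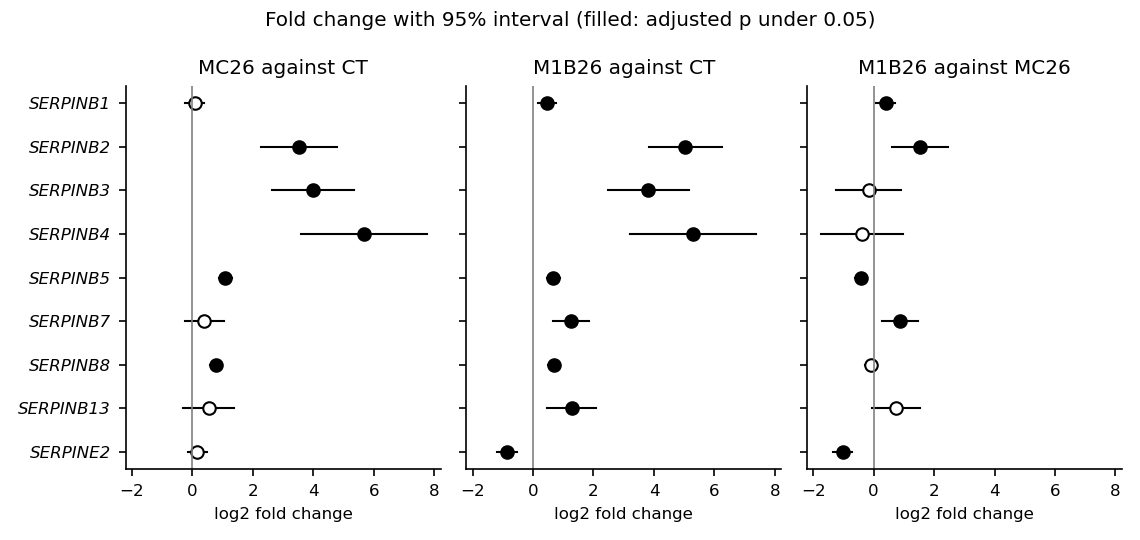
Points give the log2 fold change of each serpin in the 3 comparisons and lines its 95% interval, filled where the adjusted p was under 0.05. Against CT, 5 points are filled for MC26 and 9 for M1B26, with SERPINE2 the one filled point on the negative side.

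SERPINB3 and SERPINB4 were first known as squamous cell carcinoma antigens. SERPINB3 inhibits cysteine proteases such as cathepsins L, K and S, and SERPINB4 inhibits chymotrypsin-like serine proteases such as cathepsin G and mast cell chymase. SERPINB3 stood at 0.772, 0.874 and 1.13 CPM in CT replicates 1 to 3, at 4.23, 11.8 and 28.8 in MC26 and at 10.2, 11.9 and 17.8 in M1B26. Every library of the transformed lines was above every CT library, and MC26 and M1B26 overlapped. The means were 0.927 ± 0.187, 14.9 ± 12.6 and 13.3 ± 4.01 CPM (SD, n = 3). SERPINB3 rose by 3.98 on the log2 scale in MC26 (SE 0.61, edgeR adjusted p = 5.26e-04) and by 3.82 in M1B26 (SE 0.61, edgeR adjusted p = 4.47e-04), or 15.8-fold and 14.1-fold. M1B26 and MC26 differed by -0.17, with a 95% interval of -1.24 to 0.90 (edgeR adjusted p = 0.810), and without MC26 replicate 3 the difference turned to 0.74 (edgeR adjusted p = 0.124).

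SERPINB4 was close to its detection limit in CT, where it had 4, 2 and 13 counts, against 48, 145 and 501 in MC26 and 117, 131 and 384 in M1B26. In CPM these were 0.0572, 0.0874 and 0.159 in CT, 1.19, 3.79 and 11.8 in MC26 and 2.64, 3.10 and 7.09 in M1B26. CT did not overlap with either transformed line, and the highest value of both transformed lines was in replicate 3. The log2 fold change against CT was 5.67 in MC26 (SE 0.94, edgeR adjusted p = 8.65e-04) and 5.29 in M1B26 (SE 0.95, edgeR adjusted p = 9.30e-04). With 4 counts the exact 95% Poisson interval of CT replicate 1 was 1.09 to 10.2 counts, so the fold against CT is imprecise: without CT replicate 3 it was 6.38 on the log2 scale in MC26 and 5.99 in M1B26, and without MC26 replicate 3 it was 4.50 in MC26. For SERPINB3 in MC26 the log2 fold change without MC26 replicate 3 was 3.08. M1B26 and MC26 differed in SERPINB4 by -0.38, with an interval of -1.74 to 0.98 (edgeR adjusted p = 0.652), and without MC26 replicate 3 by 0.79 (edgeR adjusted p = 0.228).

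Of the SERPINB3 transcript, 24.9% of stretches of 50 bases but only 3.54% of those of 100 bases also occur in SERPINB4. The methods name Salmon, which divides multiply aligned reads among transcripts, but for protein-coding genes, whereas the deposited counts are whole and include non-coding genes, so it is unclear how such reads were counted here. Single values of this pair are therefore uncertain, and they were also counted as 1 gene. Their sum rose by 4.29 on the log2 scale in MC26 (edgeR adjusted p = 5.34e-04) and by 4.07 in M1B26 (edgeR adjusted p = 4.85e-04). SERPINB4 made up 6.90% (95% Wilson interval 2.71 to 16.4), 9.09% (2.53 to 27.8) and 12.3% (7.31 to 19.9) of the counts of the pair in CT replicates 1 to 3. The MC26 shares of 22.0%, 24.3% and 29.0% and the M1B26 shares of 20.5%, 20.7% and 28.4% all exceeded those of CT. The means were 9.42% ± 2.7, 25.1% ± 3.58 and 23.2% ± 4.52 (SD, n = 3). A 2-sided exact permutation test gave p = 0.1 for either transformed line against CT, the smallest p that 3 against 3 can give, and 0.15 after adjustment over 3 comparisons. Between M1B26 and MC26 the exact p was 0.5. The intervals cover counting error only.

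SERPINB2 (chr18:63871692-63903888, plus strand), or plasminogen activator inhibitor type 2, inhibits urokinase, the product of PLAU. It had 7, 4 and 28 counts in CT, or 0.10, 0.175 and 0.342 CPM. It stood at 3.95, 2.67 and 1.01 CPM in MC26 and at 8.88, 4.52 and 8.42 in M1B26. The lines did not overlap, with every M1B26 library above every MC26 library and every MC26 library above CT. The means were 0.205 ± 0.124, 2.54 ± 1.47 and 7.27 ± 2.40 CPM (SD, n = 3). SERPINB2 rose 11.5-fold in MC26 (log2 fold change 3.52, SE 0.57, edgeR adjusted p = 7.57e-04) and 32.9-fold in M1B26 (5.04, SE 0.55, edgeR adjusted p = 3.45e-05). It was 2.87-fold higher in M1B26 than in MC26 (1.52, SE 0.42, edgeR adjusted p = 0.0147), and without M1B26 replicate 1 this difference was 1.36 with an edgeR adjusted p of 0.0543. Without CT replicate 3, the log2 fold changes against CT were 4.37 and 5.88.

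Within MC26 the order of the libraries was opposite in SERPINB2 and in the pair SERPINB3 and SERPINB4. Replicate 1 was highest in SERPINB2 and lowest in the pair, and replicate 3 the reverse. From its lowest to its highest MC26 library SERPINB2 differed 3.91-fold, SERPINB3 6.81-fold and SERPINB4 9.88-fold. Among 12867 genes whose mean reached 1 CPM, 0.769%, 0.389% and 0.233% were at least as spread in MC26. SERPINB8, in contrast, differed 1.08-fold. In M1B26 the spread was 1.96-fold for SERPINB2, 1.75-fold for SERPINB3 and 2.69-fold for SERPINB4, and SERPINB2 was lowest in replicate 2.

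**Figure D3:**
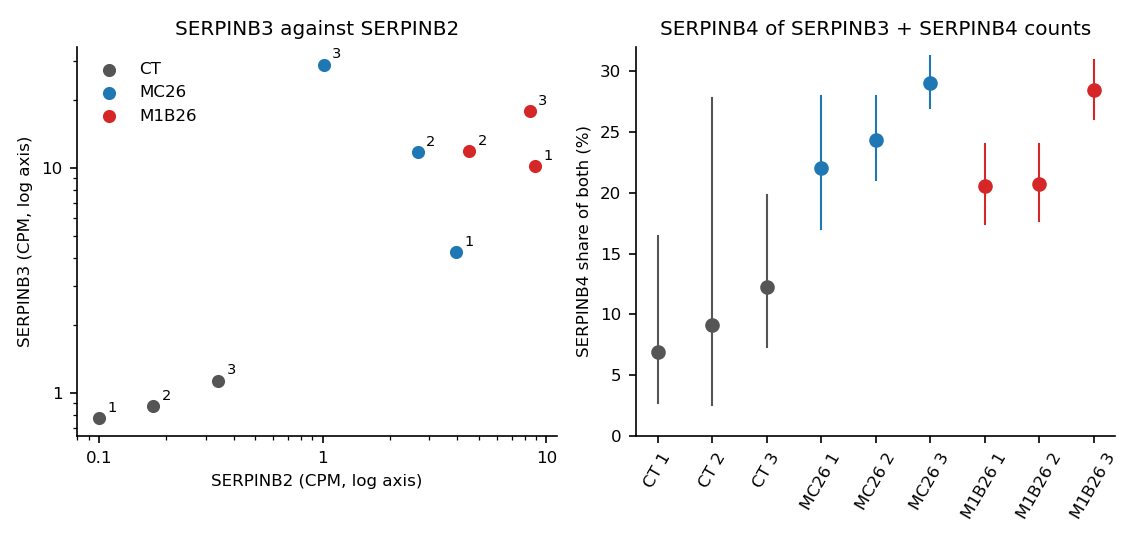
On the left, SERPINB3 is plotted against SERPINB2 in CPM on log axes, a point per library with its replicate number. On the right, points give the share of SERPINB4 in the counts of SERPINB3 and SERPINB4 in each library with its 95% Wilson interval: it was 6.90% to 12.3% in CT and 20.5% to 29.0% in the transformed lines, and in MC26 the library with the least SERPINB2, replicate 3, had the most SERPINB3.

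SERPINE2 (chr2:223975045-224039318, minus strand), or protease nexin 1, is secreted and inhibits thrombin, urokinase and plasmin. It was the member that fell. It stood at 29.1, 36.4 and 34.2 CPM in CT, at 30.9, 39.2 and 41.1 in MC26 and at 16.1, 16.0 and 22.3 in M1B26. All 3 M1B26 libraries were below the other 6, and CT and MC26 overlapped. The means were 33.2 ± 3.77, 37.0 ± 5.43 and 18.2 ± 3.58 CPM (SD, n = 3). It fell by 0.86 on the log2 scale in M1B26 against CT (SE 0.15, edgeR adjusted p = 7.18e-04) and was lower by a log2 value of -1.03 against MC26 (SE 0.15, edgeR adjusted p = 4.19e-04). In MC26 against CT the difference was 0.16, with an interval of -0.16 to 0.48 (edgeR adjusted p = 0.411). The study's signature of early neoplasia, ENI10, lists this gene. ENI10 holds genes higher in MCF10A cells sorted as positive for the surface protein CD10 than in CD10-negative ones. The study reports a higher ENI10 score in M1B26 than in CT, over all genes of the list and more samples than here. SERPINE2 is a single gene of that list, and its fall in M1B26 says nothing of the score.

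SERPINB5 (chr18:63476958-63505085, plus strand), known as maspin, is made by myoepithelial and other basal epithelial cells, does not inhibit proteases and has been studied as a suppressor of breast tumours. It was by far the most abundant member. It stood at 274, 289.6 and 262 CPM in CT, at 669, 584 and 507 in MC26 and at 431, 467 and 419 in M1B26. The 3 lines did not overlap, with CT lowest and MC26 highest. The means were 275 ± 13.6, 586 ± 81.4 and 439 ± 25.2 CPM (SD, n = 3). SERPINB5 rose 2.13-fold in MC26 (log2 fold change 1.09, SE 0.10, edgeR adjusted p = 1.17e-05) and by 0.67 on the log2 scale in M1B26 (SE 0.10, edgeR adjusted p = 2.05e-04). M1B26 was below MC26 by a log2 value of -0.42 (SE 0.10, edgeR adjusted p = 0.00577). This gene alone gave 68.8% to 70.4% of the summed CPM of the 9 members in CT, 71.3% to 80.7% in MC26 and 67.1% to 75.3% in M1B26.

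SERPINB8 (chr18:63970029-64019779, plus strand), which inhibits the proprotein convertase furin, was the member with the most even rise in MC26. Its libraries differed 1.08-fold in MC26, the least of the members, and 1.23-fold in M1B26, against 1.12-fold for SERPINB5. SERPINB8 stood at 46.8, 49.6 and 45.0 CPM in CT, at 81.5, 83.2 and 77.1 in MC26 and at 80.4, 65.9 and 81.3 in M1B26. Both transformed lines were above every CT library and overlapped with each other. The means were 47.1 ± 2.33, 80.6 ± 3.13 and 75.9 ± 8.64 CPM (SD, n = 3). It rose 1.71-fold in MC26 (log2 fold change 0.78, SE 0.09, edgeR adjusted p = 5.44e-05) and 1.61-fold in M1B26 (0.69, SE 0.09, edgeR adjusted p = 8.12e-05). M1B26 and MC26 differed by -0.09, with an interval of -0.27 to 0.10 (edgeR adjusted p = 0.440).

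SERPINB1 (chr6:2832332-2841959, minus strand) inhibits the neutrophil proteases elastase, cathepsin G and proteinase 3. It stood at 37.4, 42.9 and 36.0 CPM in CT, at 36.9, 42.2 and 42.4 in MC26 and at 43.4, 49.8 and 66.4 in M1B26. The M1B26 libraries were above the other 6, the lowest of them by less than 1 CPM, and the means were 38.8 ± 3.68, 40.5 ± 3.16 and 53.2 ± 11.9 CPM (SD, n = 3). SERPINB1 rose by 0.46 on the log2 scale in M1B26 against CT (SE 0.14, edgeR adjusted p = 0.0164) and was 0.40 higher than in MC26 (SE 0.14, edgeR adjusted p = 0.0402). Neither call held in every setting: the adjusted p was 0.0532 and 0.0570 when total counts replaced the TMM scaling, and without M1B26 replicate 3 the log2 fold changes were 0.27 (edgeR adjusted p = 0.0551) and 0.21 (edgeR adjusted p = 0.156). In MC26 against CT the difference was 0.07, with an interval of -0.24 to 0.37 (edgeR adjusted p = 0.730).

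SERPINB7 (chr18:63752935-63805376, plus strand), or megsin, is expressed in the upper epidermis, where its loss causes a palmoplantar keratoderma. Its level was low, with 31, 9 and 32 counts in CT, 28, 21 and 16 in MC26 and 55, 33 and 50 in M1B26. In CPM these were 0.443, 0.393 and 0.390, then 0.696, 0.549 and 0.376, and in M1B26 1.24, 0.781 and 0.923. The M1B26 libraries were above the other 6, with means of 0.409 ± 0.0296, 0.541 ± 0.160 and 0.981 ± 0.235 CPM (SD, n = 3). SERPINB7 rose by 1.25 on the log2 scale in M1B26 against CT (SE 0.27, edgeR adjusted p = 0.00315). Against MC26 it was 0.86 higher (SE 0.27, edgeR adjusted p = 0.0271), a call lost with DESeq2 (adjusted p = 0.0555) and without M1B26 replicate 1 (0.66, edgeR adjusted p = 0.106). MC26 and CT differed by 0.39, with an interval of -0.26 to 1.03 (edgeR adjusted p = 0.321).

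SERPINB13 (chr18:63586989-63604639, plus strand), also called hurpin or headpin, inhibits cathepsins L and K in keratinocytes. It had 36, 12 and 28 counts in CT, 14, 19 and 46 in MC26 and 47, 39 and 68 in M1B26. In CPM these were 0.514, 0.524 and 0.342, then 0.348, 0.497 and 1.08, and in M1B26 1.06, 0.923 and 1.26. M1B26 was above every CT library, whereas MC26 overlapped with both, its replicate 3 standing with M1B26. The means were 0.460 ± 0.103, 0.642 ± 0.388 and 1.08 ± 0.167 CPM (SD, n = 3). SERPINB13 rose by 1.28 on the log2 scale in M1B26 against CT (SE 0.37, edgeR adjusted p = 0.0141), and without CT replicate 3 the value was 1.06 (edgeR adjusted p = 0.0662). The differences of MC26 against CT (0.53, interval -0.32 to 1.39, edgeR adjusted p = 0.303) and of M1B26 against MC26 (0.74, interval -0.05 to 1.53, edgeR adjusted p = 0.123) missed the threshold. Without MC26 replicate 3 the former was -0.08 (edgeR adjusted p = 0.920) and the latter 1.36 (edgeR adjusted p = 0.00595).

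To compare levels between genes, CPM was divided by the length of one reference transcript of each gene in kb. In CT, SERPINB5 was highest at 107 ± 5.27 CPM per kb (SD, n = 3), followed by SERPINB1 (15.7 ± 1.49), SERPINE2 (14.9 ± 1.69) and SERPINB8 (14.2 ± 0.702), which lay within 1 SD of each other. SERPINB3 came next at 0.543 ± 0.110, then SERPINB7 at 0.186 ± 0.0135, whose libraries were all above those of SERPINB13 (0.147 ± 0.0328). SERPINB13 and SERPINB2 (0.108 ± 0.0649), and SERPINB2 and SERPINB4 (0.0592 ± 0.0305), differed by less than the SD of SERPINB2. From few counts, SERPINB2 was still above SERPINB4 in every CT library. In CT, 4 members were thus strongly expressed and 5 barely.

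In MC26 the levels were 227 ± 31.5 CPM per kb for SERPINB5, 24.3 ± 0.943 for SERPINB8, 16.6 ± 2.44 for SERPINE2 and 16.4 ± 1.27 for SERPINB1. SERPINB3 (8.75 ± 7.37), SERPINB4 (3.28 ± 3.23) and SERPINB2 (1.33 ± 0.774) lay between these and SERPINB7 (0.246 ± 0.0729) and SERPINB13 (0.205 ± 0.124). Of the first 3, SERPINB3 was highest in every MC26 library, while SERPINB4 and SERPINB2 changed places between libraries. In M1B26 they were 169.8 ± 9.75 for SERPINB5, 22.8 ± 2.6 for SERPINB8, 21.5 ± 4.79 for SERPINB1, 8.15 ± 1.61 for SERPINE2 and 7.80 ± 2.35 for SERPINB3. SERPINB2 (3.82 ± 1.26) and SERPINB4 (2.51 ± 1.43) followed, with SERPINB2 above SERPINB4 in every M1B26 library. SERPINB7 (0.447 ± 0.107) and SERPINB13 (0.345 ± 0.0534) were last. SERPINE2 had therefore moved from the level of SERPINB1 to that of SERPINB3. Divided by all annotated exons of the gene in place of 1 transcript, SERPINB8 gave 8.18, 14 and 13.2 CPM per kb and SERPINE2 3.71, 4.14 and 2.03, so the place of these 2 depends on the transcript used.

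Along chromosome 18 the cluster reads SERPINB5, SERPINB12, SERPINB13, SERPINB4, SERPINB11, SERPINB3, SERPINB7, SERPINB2, SERPINB10, HMSD and SERPINB8. The serpins of the cluster that are no members were silent or nearly so: SERPINB11 had 0 counts, SERPINB12 2 and SERPINB10 4 over all 9 libraries, and HMSD had 1. At its ends SERPINB5 and SERPINB8, the abundant genes, rose modestly, and between them stood SERPINB13, SERPINB4, SERPINB3, SERPINB7 and SERPINB2, all low in CT. Below SERPINB5 lie 4 tested genes that are no serpins. PHLPP1, a phosphatase that acts on AKT, had log2 fold changes of -0.46 in MC26 and -0.68 in M1B26, both past the threshold (edgeR adjusted p = 0.00301 and 1.70e-04). BCL2, the inhibitor of apoptosis, had -0.18 (edgeR adjusted p = 0.376) and -0.73 (edgeR adjusted p = 0.00232). KDSR, an enzyme of ceramide synthesis, had 0.19 (edgeR adjusted p = 0.0355) and -0.02 (edgeR adjusted p = 0.831), and VPS4B, of the ESCRT machinery, -0.08 (edgeR adjusted p = 0.471) and -0.31 (edgeR adjusted p = 0.010).

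Thus 1 neighbour rose and 1 fell in MC26, and 3 fell in M1B26, with median log2 fold changes of -0.13 and -0.50. Over the 194 tested genes of chromosome 18 the medians were -0.02 and -0.07. SERPINB3 overlaps SERPINB11 on the opposite strand, SERPINB5 the pseudogene ATP5MC1P6, which had 35 counts, and SERPINB8 overlaps HMSD, which had 1 count. Overlapping genes without a symbol were not analysed here.

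**Figure D4:**
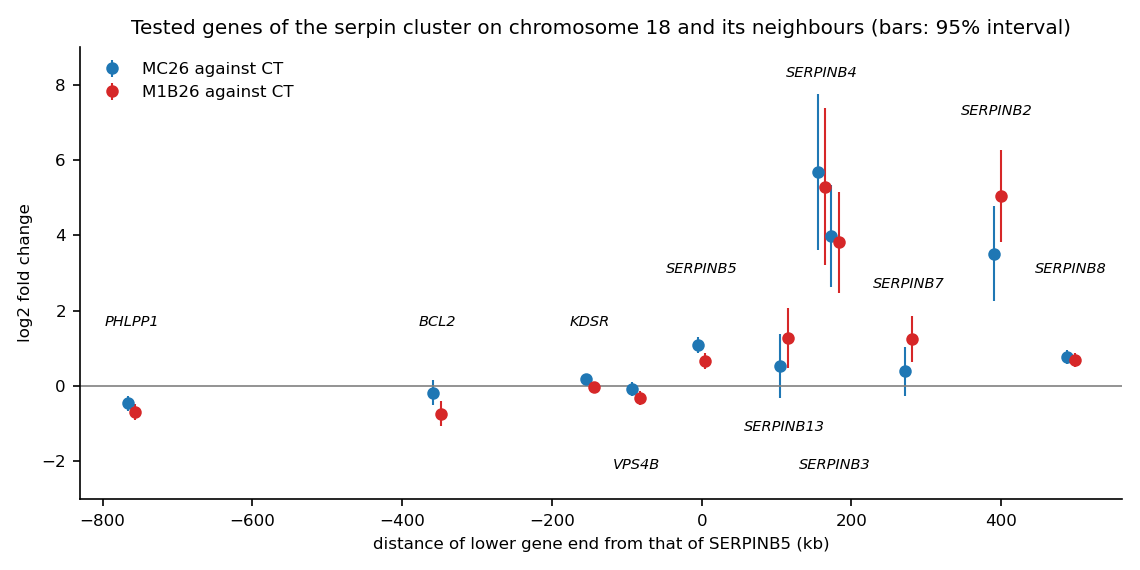
Points give the log2 fold change of each tested gene against CT, with its 95% interval, by the distance of the gene's lower end from that of SERPINB5 in kb. The 4 neighbours on the left lie between -0.73 and 0.19, and SERPINB4, SERPINB3 and SERPINB2 lie between 3.52 and 5.67.

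The remaining clade B serpins hold 5 genes, of which SERPINB6 alone was expressed enough to be tested. It is a broadly expressed inhibitor of serine proteases and had means of 89.1 ± 1.93, 100.5 ± 3.67 and 112.5 ± 6.79 CPM (SD, n = 3). It rose by 0.34 on the log2 scale in M1B26 (edgeR adjusted p = 0.00141), with 0.17 in MC26 (edgeR adjusted p = 0.0525). SERPINB9, the granzyme B inhibitor, had 0 counts in every library.

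Of 22 serpins of other clades 9 were tested. In MC26 3 rose and 4 fell, in M1B26 5 rose and 1 fell, and between M1B26 and MC26 4 were higher and 4 lower, with medians of -0.07, 0.66 and 0.73. SERPINA1, the elastase inhibitor of plasma, rose by 1.64 and 1.26 on the log2 scale (edgeR adjusted p = 1.95e-06 and 6.65e-06), and SERPINA5, the protein C inhibitor, fell by 2.30 and 1.23 (edgeR adjusted p = 2.79e-06 and 7.84e-05). ENI10 also lists SERPINA5, as well as DCN, named above, and C1S, named below. It lists PI3 too, one of the other epithelial protease inhibitors. PI3 rose by 1.61 on the log2 scale in M1B26 (edgeR adjusted p = 0.0421), with 0.62 in MC26 (edgeR adjusted p = 0.452).

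Of 18 proteases and receptors that serpins of these clades act on, 10 were tested: 4 rose and 1 fell in MC26, 4 rose and 2 fell in M1B26, and 4 were higher and 3 lower in M1B26 than in MC26. Their median log2 fold changes were 0.21, 0.24 and 0.12. PLAU, which encodes urokinase, had means of 31.5, 38.3 and 46.5 CPM. It rose by 0.56 in M1B26 (edgeR adjusted p = 0.0388), with 0.28 in MC26 (edgeR adjusted p = 0.303). PLAUR, the urokinase receptor, had means of 10.8, 33.3 and 20.1 CPM and rose by 1.61 in MC26 (edgeR adjusted p = 3.48e-05) and 0.88 in M1B26 (edgeR adjusted p = 0.00131). LRP1, the receptor that clears protease and serpin complexes, had 55.3, 16.1 and 23.7 CPM and fell by 1.79 and 1.23 (edgeR adjusted p = 9.25e-06 and 6.64e-05). CTSS, or cathepsin S, a target of SERPINB3, had 0.443, 0.851 and 1.77 CPM and rose by 1.97 in M1B26 (edgeR adjusted p = 1.23e-05) and 0.91 in MC26 (edgeR adjusted p = 0.00414). The other SERPINB3 targets named above behaved otherwise. CTSL, or cathepsin L, had 93.7, 173 and 111 CPM and rose by 0.89 in MC26 (edgeR adjusted p = 4.14e-05) and 0.25 in M1B26 (edgeR adjusted p = 0.0459). CTSK, or cathepsin K, had log2 fold changes of 0.14 and 0.09 (edgeR adjusted p = 0.538 and 0.673). The classical targets of SERPINB1 and SERPINB4 were nearly absent: ELANE had 2 counts over all libraries, PRTN3 10, and CTSG and CMA1 none. FURIN, the target of SERPINB8, had log2 fold changes of 0.32 in MC26 (edgeR adjusted p = 0.0202) and -0.27 in M1B26 (edgeR adjusted p = 0.0371).

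Of 14 other epithelial protease inhibitors 11 were tested. In MC26 3 rose and 4 fell, in M1B26 4 rose and 3 fell, and 4 were higher and 1 lower in M1B26 than in MC26, with medians of -0.11, 0.07 and 0.47. CSTA, a cystatin of the cornified envelope, rose by 0.88 and 1.46 on the log2 scale (edgeR adjusted p = 4.24e-05 and 9.78e-07). TFPI2, an inhibitor of plasmin and other proteases of the matrix, rose by 4.20 in MC26 (edgeR adjusted p = 7.66e-05), with 0.98 in M1B26 (edgeR adjusted p = 0.188). CST6, a secreted cystatin, fell by 2.97 and 2.04 (edgeR adjusted p = 1.34e-04 and 5.03e-04), and TFPI, the inhibitor of tissue factor, fell by 1.16 in MC26 (edgeR adjusted p = 1.83e-04).

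The genes most alike in pattern were sought by the Pearson correlation of log2(CPM + 0.5) over the 9 libraries, among genes whose mean reached 5 CPM. The libraries fall into 3 lines, so the values describe mostly the order of the lines. SERPINB4 was most like SERPINB3 (r = 0.992), and then C1S, a protease of the complement system (0.967). SERPINB3 was most like C1S (0.986) and CLEC2B (0.978), and SERPINB2 like TMEM199 (0.993) and SLC35G2 (0.985). For SERPINB5 these were LETM2 (0.995) and UAP1 (0.994), for SERPINB8 TNIP3 (0.992) and ATAD5 (0.987), for SERPINE2 HEG1 (0.976) and NIPA2 (0.970), and for SERPINB1 SQOR (0.941) and NARS2 (0.929).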

How the data were processed

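Counts were deposited as whole numbers per gene symbol for 9 libraries, 3 each of CT, MC26 and M1B26, grouped by their titles. The submitters' processing notes name STAR 2.7.3a, Salmon 1.1.0 and GRCh38, and the authors aligned paired poly-A reads. The authors' methods name Salmon for quantifying protein-coding genes, but the deposited counts are whole and include non-coding genes, so whether Salmon made this table is unclear. The strand setting is not given in the sources used here. Genes passing filterByExpr (minimum count 10, about 0.229 CPM in the median library) were kept. TMM scaling and a quasi-likelihood model with line as its term were fitted to all 9 libraries in edgeR 4.0.16 (R 4.3.3), and 3 contrasts were tested 2-sided with Benjamini-Hochberg adjustment over 15717 genes, the threshold being 0.05. The common biological coefficient of variation, a single value for all tested genes, was 10.4%. The method was tested on simulated data with the same dispersion for every gene. Genes as spread as SERPINB2, SERPINB3 and SERPINB4 were not simulated. Shares of counts were compared by exact permutation in Python 3.11.15 with scipy 1.17.1. Positions and lengths came from GENCODE v44, promoters from RefSeq. Alternatives were RLE factors, total counts, DESeq2 1.42.0, no filter, a filter at a mean of 50 counts, only 6 libraries, a replicate block, each library left out, and SERPINB3 and SERPINB4 summed. All members were named. Other listed genes were named where changed by at least 1 on the log2 scale. After their values were seen, SERPINB6, KDSR, VPS4B, FURIN, CTSL, CTSK, PLAU, KRT5, KRT8, CDH1, COL1A1, DCN, the silent genes and the smaller values beside them were also named. Some listed genes are not reported here. Members and gene lists were chosen with earlier results of these data known.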

Additional observations from a re-analysis of the deposited data

Results flagged for a closer look

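Lines from the same parental cells and cytokines differed in 5 serpins by a test of the difference itself, M1B26 against MC26 in edgeR. The log2 fold changes were 1.52 for SERPINB2, 0.86 for SERPINB7 and 0.40 for SERPINB1, higher in M1B26, and -0.42 for SERPINB5 and -1.03 for SERPINE2, lower in M1B26. SERPINB2 and SERPINB5 rose against CT in both lines. SERPINE2 fell against CT in M1B26 and stood at 0.16 in MC26, short of the threshold. The sort, the clones and the time with cytokines differed between the lines and cannot be told apart.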

How the results depend on the processing

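Under the other 8 settings and without each library in turn, no member reversed a called direction. Differences short of the threshold turned sign for SERPINB3 in M1B26 against MC26 (0.09 with the replicate block) and, in M1B26 against MC26 without M1B26 replicate 2, for SERPINB8 (0.01), for SERPINB1 in MC26 against CT with total counts (-0.01), and without MC26 replicate 3 for SERPINB3, SERPINB4 and SERPINB13 as given above. The members called changed numbered 4 to 5 in MC26 against CT, 7 to 9 in M1B26 against CT and 4 to 5 in M1B26 against MC26 under other settings, the 4 in the first where SERPINB3 and SERPINB4 were 1 gene, the 7 in the second where SERPINB7 and SERPINB13 fell under the filter of 50 counts, and the 4 in the third where SERPINB1 or SERPINB7 was lost. Leaving out 1 library gave 5 to 5, 7 to 9 and 3 to 5, with 3 without MC26 replicate 2, M1B26 replicate 1 or M1B26 replicate 3, which each took 2 calls among SERPINB1, SERPINB2 and SERPINB7. All changed genes numbered 6081, 7688 and 6215, and 4524 to 6127, 6282 to 7941 and 4503 to 7166 without 1 library. SERPINB1 in M1B26 against MC26 had an adjusted p of 0.0569 in the fit of 6 libraries and up to 0.156 without 1 library. SERPINB7 in that comparison had 0.0717, 0.0881 and 0.050 without MC26 replicate 2, MC26 replicate 3 and M1B26 replicate 3. With total counts in place of TMM, the median log2 fold change of all genes moved to -0.08, -0.09 and -0.02, and the share of changed genes that were higher went from 48.5%, 51.5% and 53.5% to 35.8%, 39.6% and 50.5%. Equal replicate numbers showed no clear pairing: deviations of same-numbered libraries correlated at -0.16 to 0.30, 3 of 9 over 0.1. Differently numbered libraries correlated at -0.27 to 0.27, 4 of 18 over 0.1. Between MC26 and M1B26 the same-numbered pairs had 0.19, 0.07 and 0.20, and the differently numbered ones -0.26 to 0.11. With the replicate block 5879, 7513 and 6009 genes and 5, 9 and 5 members were called. Depth limited SERPINB4 and SERPINB2 in CT, where 2 to 13 and 4 to 28 counts set the folds.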
